A study of Mus musculus with 9 samples.

Results

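The strongest open chromatin of WT LSK cells comprised 4229 regions of 38992 merged autosomal regions that held a peak in at least 1 of 2 WT libraries. Members were chosen by the strength of their WT peaks. Peaks of both WT lists that shared 1 bp were merged, peaks of each list were ranked by the −log10 p of the authors' peak caller, and a region was a member when it held one of the 5000 strongest peaks of both lists. The WT ranks, p-values and summit folds of the members therefore describe the choice and are not findings. Of the other regions, 18295 were shared by both WT lists without reaching the 5000 strongest of both.

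LSK cells are the lineage-negative, Sca-1-positive, Kit-positive fraction of mouse bone marrow, which holds haematopoietic stem cells and early progenitors. Their open chromatin was read by ATAC-seq, in which a transposase inserts sequencing adapters where DNA is accessible. The study asks how β-catenin and Hoxa9 preserve DNA replication and stem cell function, and how this depends on Prmt1. There were 2 libraries each of WT and of the single mutants Bcat_KO, HOXA9_KO and PRMT1_KO. The dKO, which combines the β-catenin and Hoxa9 changes, had 1 library.

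The WT cells carry the genotype tag WT and no named allele. Bcat_KO is tagged as a β-catenin knockdown, HOXA9_KO as a HOXA9 knockdown, PRMT1_KO as a PRMT1 knockdown and the dKO as a knockdown of both β-catenin and Hoxa9, although the sample titles call all of them KO. Neither the method of gene loss nor the promoter of any Cre or hairpin is given in the sources used here, and the same holds for strain, age and time. The series text names primary transplants of Prmt1KO mice as the source of cells and does not say whether the WT cells had been transplanted. Each library started from 50000 cells, per the labels. No source states that the 2 libraries of any group stem from different mice, so p-values measure only the spread between these samples, which may be technical.

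Open chromatin marks DNA from which nucleosomes have been displaced, mostly promoters and enhancers. Promoters of genes that every cell needs, such as those for ribosomes, splicing and DNA replication, are typically rich in CpG and open in most cell types. Enhancers that fix cell identity usually lie away from gene starts and differ between cell types, and in blood progenitors many are bound by RUNX, GATA and ETS factors.

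The promoters below show what a strong region of WT LSK cells looked like in sequence. They run from 250 bases before to 50 bases after the gene start, on the strand of the gene, in RefSeq's GRCm38.p6. Capitals mark exact matches, on either strand, to 10 short motifs, among them the GC box (GGGCGG), the CCAAT box (CCAAT), the ETS site (CCGGAAG), the E-box (CACGTG) and the TATA box (TATAAA). Matches that overlap are joined. Hjurp, a chaperone of the centromeric histone, had the best-ranked promoter, at chr1:88277530-88277829 on the minus strand. Prmt1 lies at chr7:44986371-44986670 (minus), the ribosomal protein gene Rpl37 at chr15:5116363-5116662 (plus), and Rpa3, a subunit of the single-strand DNA binding complex of replication, at chr6:8259092-8259391 (minus). Gsk3b, a kinase that marks β-catenin for destruction, lies at chr16:38088751-38089050 (plus). Cebpa, a transcription factor of myeloid commitment, lies at chr7:35119043-35119342 (plus), and Flt3, a cytokine receptor of multipotent progenitors, at chr5:147400440-147400739 (minus). Lyl1, a stem cell transcription factor at chr8:84701207-84701506 (plus), is shown for contrast, since its region was shared by both WT lists and was not a member.
Hjurp: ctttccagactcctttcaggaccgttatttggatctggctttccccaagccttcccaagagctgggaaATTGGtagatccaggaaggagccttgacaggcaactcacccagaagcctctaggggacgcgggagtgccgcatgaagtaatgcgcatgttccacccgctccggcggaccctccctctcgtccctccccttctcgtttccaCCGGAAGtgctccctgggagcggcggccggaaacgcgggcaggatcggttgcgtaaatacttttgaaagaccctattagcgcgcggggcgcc
Prmt1: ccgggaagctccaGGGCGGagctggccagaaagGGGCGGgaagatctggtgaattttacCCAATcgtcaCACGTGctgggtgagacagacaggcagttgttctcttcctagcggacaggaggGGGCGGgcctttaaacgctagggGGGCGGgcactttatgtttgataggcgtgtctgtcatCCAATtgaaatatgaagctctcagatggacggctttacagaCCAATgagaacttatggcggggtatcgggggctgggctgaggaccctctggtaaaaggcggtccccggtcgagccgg
Rpl37: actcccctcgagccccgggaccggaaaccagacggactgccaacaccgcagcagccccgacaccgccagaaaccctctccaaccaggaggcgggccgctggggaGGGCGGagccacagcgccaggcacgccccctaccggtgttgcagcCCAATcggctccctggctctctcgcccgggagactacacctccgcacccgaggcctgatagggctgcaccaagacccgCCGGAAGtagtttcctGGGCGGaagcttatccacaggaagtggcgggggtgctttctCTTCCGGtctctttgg
Rpa3: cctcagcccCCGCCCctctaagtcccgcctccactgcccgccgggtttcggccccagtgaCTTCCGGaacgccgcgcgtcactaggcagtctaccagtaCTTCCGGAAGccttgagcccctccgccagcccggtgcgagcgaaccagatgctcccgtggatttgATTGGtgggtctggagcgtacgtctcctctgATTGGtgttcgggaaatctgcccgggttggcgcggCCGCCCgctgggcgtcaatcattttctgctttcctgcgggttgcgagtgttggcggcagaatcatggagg
Gsk3b: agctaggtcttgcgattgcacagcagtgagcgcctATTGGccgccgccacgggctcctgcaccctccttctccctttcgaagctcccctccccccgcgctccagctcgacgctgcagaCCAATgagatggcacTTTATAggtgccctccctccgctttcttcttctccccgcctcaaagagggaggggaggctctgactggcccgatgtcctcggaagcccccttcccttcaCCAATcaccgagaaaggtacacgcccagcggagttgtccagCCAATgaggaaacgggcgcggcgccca
Cebpa: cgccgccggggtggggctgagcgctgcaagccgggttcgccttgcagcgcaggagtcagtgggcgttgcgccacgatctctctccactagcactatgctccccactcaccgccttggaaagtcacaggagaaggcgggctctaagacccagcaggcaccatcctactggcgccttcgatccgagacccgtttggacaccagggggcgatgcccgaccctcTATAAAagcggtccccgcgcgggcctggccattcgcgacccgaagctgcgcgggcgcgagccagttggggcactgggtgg
Flt3: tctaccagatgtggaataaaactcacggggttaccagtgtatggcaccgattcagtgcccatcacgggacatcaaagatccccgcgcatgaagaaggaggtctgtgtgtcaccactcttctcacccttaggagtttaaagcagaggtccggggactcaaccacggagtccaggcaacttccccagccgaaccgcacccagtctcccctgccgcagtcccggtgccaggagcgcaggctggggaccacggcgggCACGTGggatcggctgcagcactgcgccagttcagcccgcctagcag
Lyl1: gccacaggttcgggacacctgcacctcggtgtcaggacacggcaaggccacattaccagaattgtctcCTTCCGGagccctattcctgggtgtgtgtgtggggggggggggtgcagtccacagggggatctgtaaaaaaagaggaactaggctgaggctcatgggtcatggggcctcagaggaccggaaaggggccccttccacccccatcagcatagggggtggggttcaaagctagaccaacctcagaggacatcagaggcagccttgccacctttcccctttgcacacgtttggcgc
The 7 members held 17 to 29 CpG dinucleotides in these 300 bases, and the Lyl1 promoter held 7. The median over promoters under other shared regions was 22, so Lyl1 is not typical of them. No exact GC box, CCAAT box or ETS site was found in the Cebpa or the Flt3 window, where a TATA box and an E-box were the matches.

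Of the 4229 members, 3688 (87.2%) lay within 1 kb of a gene start. A further 306 (7.24%) lay inside a gene, 183 (4.33%) within 50 kb of one, and 52 (1.23%) farther away. Among the shared WT regions outside the members, 42.4% lay at gene starts, and among regions found in 1 WT list only, 16.6%. Members were a median of 949 bp wide (quartiles 799 and 1150), against 595 bp for the other shared regions. Strand was known for 77.9% of the 33073 autosomal protein-coding and lncRNA genes, and for the rest both gene ends counted as starts. With the starts of known strand alone, 74.1% of the members lay at a gene start.

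The gene-start share was not highest at the very top of the lists. Among the 100 strongest peaks it was 59.0% in WT replicate 1 and 57.0% in WT replicate 2, and in both 18% lay over 50 kb from any gene. It rose to 93.5% and 94.3% for the next 400 peaks and fell to 77.2% and 77.6% for ranks 4001 to 5000. At ranks 9001 to 10000 it was 49.3% and 48.8%.

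**Figure D1:**
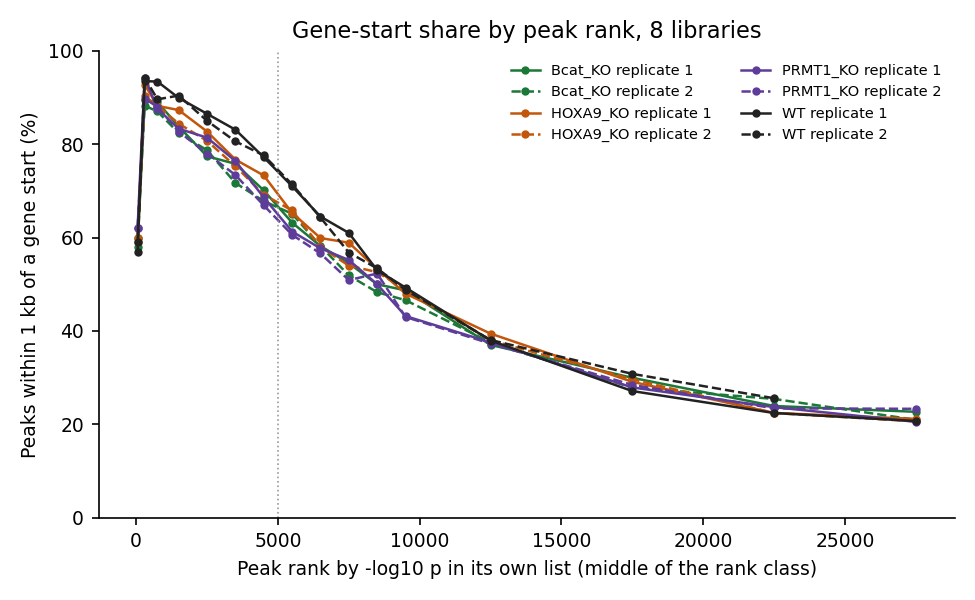
Share of peaks within 1 kb of a gene start (y axis, %) by peak rank within the own list (x axis, middle of each rank class) in the 8 libraries of the groups with a pair; solid and dashed lines are replicates 1 and 2, and the dotted line marks rank 5000. In every library the first 100 peaks stood below the next 400, and the 2 WT lines lay above the 6 mutant lines at ranks 2001 to 6000.

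The same contrast was tested within every one of the 8 WT and single-mutant lists. The 5000 strongest peaks lay at gene starts more often than the remaining peaks of the same list by 50.2 percentage points on average, and in 8 of 8 lists. The exact sign-flip permutation test (two-sided) gave p = 0.00781, the smallest it can give, and 0.0333 after Benjamini-Hochberg adjustment over the 7 sample-level tests. In WT the shares were 85.3% against 30.8% in replicate 1 and 84.4% against 36.7% in replicate 2. Without any 1 of the 8 libraries the adjusted p was 0.0547, the difference staying between 49.6 and 50.6 points.

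Summits of the members in the 2 WT libraries lay a median of 32 bp apart, and 87.0% lay within 100 bp of each other. Across the 4229 members the summit fold correlated with Spearman's rho = 0.737 between the replicates and the rank with 0.822, a description over regions that share each library and were chosen on the ranks in both. The log2 ratio of the folds of replicate 1 to replicate 2 had a median of −0.03 and an SD of 0.18. Regions among the 5000 strongest of only 1 list numbered 771 and 765, and the other list ranked 96.4% and 96.6% of them within its 10000 strongest.

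The authors' summit fold, a ratio of reads to the local background, had a median of 12.6 in WT replicate 1 and 12.7 in WT replicate 2 over the members. Fold and p together give the number of reads at a summit, which had a median of 67 over a background of 4.51 in replicate 1 and of 52 over 3.23 in replicate 2. The weakest members rested on 34 and 25 reads. In the mutants the median fold of the same regions ran from 13.9 to 15.3, with medians of 64 to 83 reads. In the dKO it was 7.15, on a median of 12 reads, over the 3715 members with a dKO peak only, since 514 had none.

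The regions named at the threshold were gene starts on both sides. Of all regions among the 5000 strongest of WT replicate 1 or 2 only, 75.1% and 70.3% lay at gene starts, against 87.2% of the members. Just inside lay the starts of Gtf3a (ranks 3349 and 5000), which encodes a transcription factor of 5S rRNA genes, and of Deptor (3641 and 4997), an mTOR inhibitor. Just outside lay those of Trim32 (5001 and 1633), a ubiquitin ligase, and Prdm11 (4292 and 5001). Their WT folds were 11.9 and 11.1 for Gtf3a, 10.3 and 8.99 for Deptor, 10.9 and 14.6 for Trim32, and 10.8 and 9.80 for Prdm11.

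The very strongest members were not gene starts. Of the 20 with the best mean rank, none lay at a gene start. Rank 1 in both WT lists was chr2:98666250-98667325, 35.3 kb from the nearest gene, with folds of 22.2 and 24.6 on 19704 and 17844 reads. It was also rank 1 in all 6 single-mutant libraries and in the dKO. On chromosome 9 a run of 11 members between 3000007 and 3038282 held no gene start, with WT folds from 2.90 to 21.2. A 247 bp member at chr12:3109869-3110115 had folds of 50.3 and 55.4 on 2962 and 2754 reads, and a 252 bp member inside Chl1, a neural adhesion gene, had 50 and 55.3. Short members inside Lars2 (37.5 and 40.4), the mitochondrial leucyl-tRNA synthetase, and Zc3h7a (36.3 and 36.4) were of the same kind. No filter for repeats or poorly mapping sequence was applied here, and the part of read mapping in these values was not tested.

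One of these members separated WT from all mutant libraries. It lies at chr1:24612366-24613184, 24.4 kb from Col19a1, a collagen gene. Both WT lists ranked it 2, with 6836 and 5918 reads at the summit. The mutant libraries held 65 and 66 reads in Bcat_KO, 79 in HOXA9_KO replicate 1, 82 and 71 in PRMT1_KO and 72 in the dKO. HOXA9_KO replicate 2 held the most of the mutants and had their highest fold, 32.1. The groups did not overlap, and the mean of the 2 WT libraries was 81.8 times that of the 6 single mutants. The summit fold was 53.7 and 59.7 in WT and between 24.3 and 32.1 in the single mutants. Over the 4227 members with a peak in all 6 single mutants, the log2 ratio of WT to mutant reads had a median of −0.19 and an SD of 0.27, and the next highest member stood at 0.91. Reads were not scaled for depth, and this member was named after its values were seen. How reads from repeats or of mitochondrial origin were treated in each library is not given in the sources used here. Library handling and genotype therefore cannot be told apart at this member.

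Hjurp had the best-ranked member at a gene start. It ranked 25 and 24 in WT, with folds of 15.4 and 16.0 on 403 and 336 reads. In the 6 single mutants its rank ran from 19 to 26 and its fold from 16.9 to 19.5. Next came the starts of 2700054A10Rik (29 and 31), Kbtbd3 (30 and 32), the ubiquitin ligase Pja2 (34 and 33), the zinc finger gene Zfp317 (38 and 39), Qdpr (49 and 37), which recycles tetrahydrobiopterin, and Ppp2r1a (45 and 42), the scaffold of protein phosphatase 2A. Further down the first 20 were Ptp4a1, Hint3, Sel1l, Pdcd10, Stt3a, Miip, Papss1, Khsrp, Opn3 and M6pr, and 1700028E10Rik, 4932412D23Rik and AW549877, for which no role is given here, with WT folds between 11.6 and 21.5. Sel1l and Stt3a act in the quality control and glycosylation of proteins in the endoplasmic reticulum, Khsrp binds mRNA, and M6pr sorts lysosomal enzymes. Width did not go with fold among the widest members. AY036118 on chromosome 17 held the widest, 5646 bp with folds of 2.39 and 2.43, while Ncoa2, a nuclear receptor coactivator, held 2528 bp with folds of 10.2 and 10.4.

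Of 20665 autosomal protein-coding genes, 4127 (20%) had a member within 1 kb of the start. A region shared by both WT lists, members included, lay at the starts of 11149 (54.0%). Of 12408 lncRNA genes, 600 (4.84%) had one. The gene lists below were read against the 20% of all protein-coding genes, and nothing particular to a list is drawn from its count.

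Of the lists of basic machinery, members lay at 22 of 40 splicing factor genes (55.0%), 29 of 75 ribosomal protein genes (38.7%) and 14 of 32 proteasome subunit genes (43.8%). The median mean rank of the shared regions at these starts was 3696, 5786.5 and 4668, against 6322.5 over the 11149 protein-coding genes with a shared region. Among the best-placed were Hnrnpc (ranks 361 and 390), an RNA-binding protein of nascent transcripts, Rpl37 (148 and 263) and Psma2 (207 and 506), a subunit of the 20S proteasome core. With peaks ranked by fold instead of p, 10 of the 40 splicing factor genes had a member. The share over all protein-coding genes was not computed for that ranking. The WT folds were 15.3 and 15.1 for Hnrnpc, 18.2 and 15.8 for Rpl37, and 19.0 and 17.8 for Psma2.

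DNA replication and repair, the processes named in the study's title, were covered to a similar extent. Members lay at 23 of 42 genes of the replication machinery (54.8%) and at 17 of 37 DNA damage response genes (45.9%). Rpa3 ranked 221 and 417, with folds of 16.7 and 15.7. Gins4, a subunit of the replicative helicase, ranked 389 and 363, and Orc4, of the origin recognition complex, 958 and 157. Mcm4, a helicase subunit, and Prkdc, the kinase of DNA end joining, share 1 region at their starts, which ranked 440 and 422 with folds of 13.6 and 14.8. The start of Xrcc4, a ligation factor of end joining, ranked 241 and 103 in WT and between 90 and 531 in the single mutants. A second Xrcc4 member lay in the gene body, 110 kb from the start, at chr13:89889029-89889409.

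That body member was named for its poor median rank in the single mutants. It held 44 and 26 reads in WT, 24 and 21 in Bcat_KO, and 42 and 55 in PRMT1_KO. HOXA9_KO replicate 1 had no peak there and replicate 2 had 6 reads. WT ranks were 3097 and 4591, those of PRMT1_KO 6759 and 2843, and the HOXA9_KO rank was 39736. The values of HOXA9_KO lay below those of every other group of single mutants and WT.

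Of the 9 arginine methyltransferase genes listed, 7 (77.8%) had a member at the start. These enzymes methylate histones and many RNA-binding proteins, and most asymmetric dimethylation is the work of Prmt1. At the Prmt1 start the WT ranks were 1883 and 1131. PRMT1_KO ranked it 410 and 427, Bcat_KO 430 and 493, HOXA9_KO 736 and 792, and the dKO 2049. Its fold was 11.8 and 14.3 in WT and between 14.6 and 17.6 in the 6 single mutants. PRMT1_KO thus kept a strong peak at the start of the targeted gene, and since the changed part of the gene is not given in the sources used here, this neither checks nor contradicts the genotype. Prmt3, Carm1, Prmt5, Prmt6, Prmt9 and Prmt7 were the other members, with WT ranks from 1163 to 4402. Prmt2 (8935 and 5091) was shared without being a member, and at Prmt8, a brain enzyme, no WT peak lay at the start.

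In the Wnt pathway, 6 of 24 genes (25%) had a member, near the background. Gsk3b ranked 239 and 248 with folds of 10.6 and 11.1, and Lgr4, a receptor for R-spondins, 393 and 156 with folds of 14.7 and 18.2. The kinases Csnk1a1 and Gsk3a, the coreceptor Lrp6 and the nuclear cofactor Pygo2 followed. Of the brakes of cytokine signalling, 4 of 16 (25%) had one, led by Cblb, a ubiquitin ligase that restrains receptor signalling, at ranks 73 and 77 with folds of 16.9 in both WT libraries. Dusp6 and Spry2, which dampen ERK signalling, and Cbl were the others. Members lay at 10 of 30 immediate early genes (33.3%), among them Btg1 (589 and 429), Jun (391 and 790), Klf6 (681 and 571) and Klf2 (886 and 1161). The Jun region had a low fold for its rank, 7.60 and 7.65, and 5 of the 30 genes had a member when peaks were ranked by fold.

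**Figure D2:**
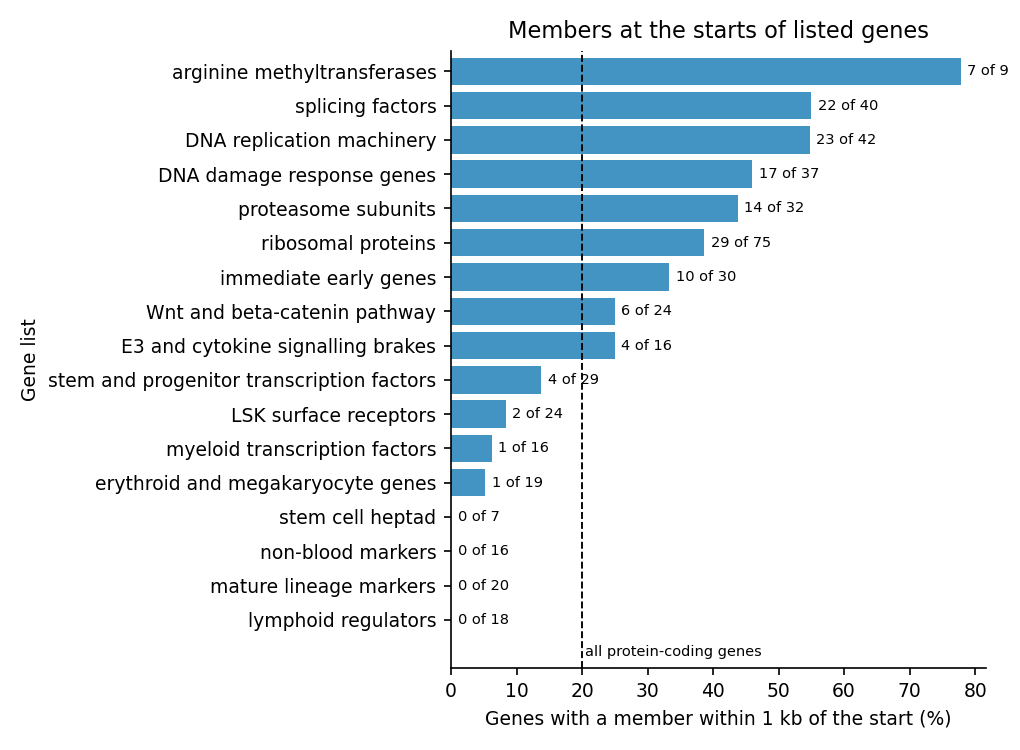
Share of listed genes with a member within 1 kb of the start (x axis, %) for the 17 gene lists, with the count beside each bar; the dashed line is the 20% of all autosomal protein-coding genes. Arginine methyltransferases (7 of 9) lay highest, and the heptad, lymphoid, mature lineage and non-blood lists had none.

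Lists of blood stem cell and lineage genes were read against the same 20%, and their counts were small. None of the 7 genes of the stem cell heptad (Tal1, Lyl1, Lmo2, Gata2, Runx1, Erg and Fli1), transcription factors that bind together in blood progenitors, had a member at the start, and 3 had a shared region. Lyl1 was closest, at ranks 7457 and 4104 with folds of 6.2 and 8.12, and Tal1 stood at 8350 and 9276. Of 29 further stem and progenitor transcription factors, 4 (13.8%) had one. They include Elf1 (2157 and 2878), which is not the best-ranked of the 4, Ikzf2 (3980 and 4401) and Etv6 (4620 and 4285), an ETS factor needed by stem cells. Mecom (5766 and 4629), Ikzf1 (5601 and 5531) and Meis1 (7349 and 5155) lay a little below the threshold. These counts move with the choice of list: with the strongest peaks of 1 WT list alone, 6 and 7 of the 29 genes had a member, and up to 1 of the 7 heptad genes, 3 of the 16 myeloid and 2 of the 18 lymphoid ones did. At Hoxa9 no shared WT region lay at the start.

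Of 16 myeloid transcription factors all had a shared region at the start, and 1 was a member. This was Cebpa, at ranks 2432 and 3261 with folds of 11.1 and 10.7, while Spi1 stood at 8807 and 11389 and Irf8 at 16227 and 14656. None of 18 lymphoid regulators was a member. Of 19 erythroid and megakaryocyte genes 1 was, Nfe2, a transcription factor of platelet formation. It held 57 and 42 reads in WT against 77 to 119 in the 6 single mutants, and WT ranked it 3506 and 3772. The mutant ranks were 911 and 919 for PRMT1_KO, 1249 and 1109 for HOXA9_KO, and 1547 and 1398 for Bcat_KO. At Nfe2 the WT libraries thus stood below all single mutants on both measures. Summit reads were not scaled for depth, and WT reads ran lower over the members in general. The log2 ratio of WT to mutant reads was −0.93 at Nfe2, against a median of −0.19 over 4227 members. How many members separate WT from the mutants in this way was not counted.

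Markers of the labelled cell type were read in the same way. Of 24 LSK surface receptor genes 10 had a shared region at the start and 2 were members, Itga4 (3256 and 3672) and Flt3 (2470 and 4906). Kit itself ranked 10377 and 14586, Cd34 7288 and 5459, and Ly6a, which encodes Sca-1, had no WT peak within 1 kb of its start. Of 20 markers of mature lineages 3 had a shared region and of 16 non-blood markers 4, and none of either list was a member. Over all protein-coding genes 54.0% had a shared region, more than in any of these lists. The counts therefore neither check nor contradict the label. Their shared regions had best mean ranks of 24144 and 14340, far below the members. Accessibility of a promoter is not expression.

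In all, 22 distal members lay near listed genes. Ets1, an ETS factor of lymphoid and progenitor cells, had no WT peak at its start and a member inside the gene at ranks 2172 and 2188, with folds of 12.9 and 13.6. Ptprc, which encodes the blood cell antigen CD45, had one at 2783 and 4171 while its start ranked 10450 and 12326. A member 15.6 kb beyond Ikzf1, nearer to Fignl1, ranked 4664 and 4914. Others lay inside Robo3 next to the stem cell receptor Robo4 (2168 and 2291), inside Lig1 (1581 and 1895), a DNA ligase of replication, and inside Rab27b (3655 and 4352), a GTPase of platelet granules. Klrb1c, a marker of mature natural killer cells, had 2 within 50 kb, at ranks 1835 and 3922 and at 2132 and 2464. Of all members 541 were distal, and 50 of them (9.24%) lay within 1 kb of another type of gene. Among these were 21 at pseudogenes, 9 at tRNA genes and 5 at miRNA genes. The share over other distal WT regions was not computed, so nothing particular to the members is drawn from these counts.

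Hairpins of miRNAs lay in few members. Of 919 autosomal hairpins in RefSeq, 25 (2.72%) overlapped a member. Most of these members lay at a gene start, as did 87.2% of all members. Mir5627 shares the member at the start of Dnajb9, a chaperone gene (ranks 44 and 89, folds of 17.6 and 16.8). Mir484 lies in the member at the start of Marf1 (3347 and 4167), and Mir210, a miRNA induced by low oxygen, at the edge of a member near Rassf7 (1613 and 2794). Their mature forms are printed with the seed, bases 2 to 8, in capitals, and no seed is shared among them.
mmu-miR-5627-5p: aGAGGGUGcgccgggcccugcg
mmu-miR-484: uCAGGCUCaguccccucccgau
mmu-miR-210-3p: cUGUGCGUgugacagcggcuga

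Members at gene starts more often lay within 1 kb of starts on both strands. Of 3135 such members with known strand, 787 (25.1%) did so, against 14.6% of 6297 other shared regions at gene starts. Counting only protein-coding genes, the shares were 14.1% and 7.0%. Their summits lay a median of 45 bp upstream of the start, and 68.0% of 3000 lay upstream. For the other shared regions the median was 9 bp upstream, and 53.2% lay upstream. These shares describe regions of the same 2 libraries and carry no test over samples. A wider region reaches more starts, and members had a median width of 949 bp against 595 bp for the other shared regions. The part of width in the share with both strands was not tested.

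**Figure D3:**
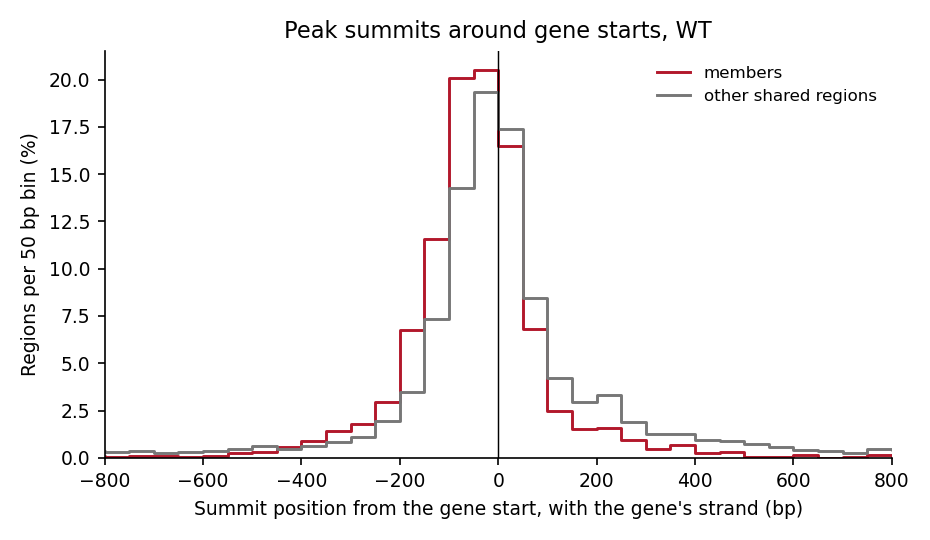
Position of the WT peak summit relative to the gene start (x axis, bp, negative is upstream) as the share of regions per 50 bp bin (y axis), for 3000 members and 5426 other shared regions at starts of known strand. The members' curve is shifted upstream, with 68.0% of summits before the start against 53.2%.

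Promoters under members were rich in CpG. Among 20063 distinct starts of autosomal protein-coding genes, 3858 promoter windows overlapped a member, 6216 another shared region and 8970 no WT region. The median GC content was 63.3%, 62.0% and 49.0%, and the median number of CpG dinucleotides 24, 22 and 4. The ratio of observed to expected CpG was at least 0.6 in 86.9% of the windows under members, 76.9% of those under other shared regions and 12.6% of those with no WT region.

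Short motifs were counted as exact matches on both strands. The GC box (GGGCGG), bound by SP and KLF factors, was found in 73.7% of the windows under members, 67.8% under other shared regions and 19.9% with no WT region, and in 47.0% of all. The CCAAT box (CCAAT), bound by NF-Y, was found in 47.1%, 33.1% and 38.5%, against 38.1% of all. The ETS site (CCGGAAG) was found in 23.1%, 18.9% and 2.76%, against 11.9% of all. GC content moved with these sets. Within windows of 60 to 70% GC, the CCAAT box was in 46.6% under members and 33.9% under other shared regions, and the ETS site in 26.3% and 21.9%. For the GC box the order changed with GC content. Members stood higher within 50 to 60% GC (57.4% and 50.3%) and 60 to 70% (82.5% and 77.3%). They stood lower within 40 to 50% (19.8% and 24.0%) and 70 to 80% (91.8% and 92.7%).

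The TATA, GATA, RUNX and AP-1 motifs were less frequent under members than where WT had no region, before any matching on GC. The TATA box (TATAAA) was found in 4.25% of the windows under members, 6.55% under other shared regions and 21.2% with no WT region, against 12.7% of all. The GATA site (AGATAA) was found in 3.99%, 5.50% and 15.1%, against 9.57% of all, and the RUNX site (TGTGGTTT) in 0.829%, 0.997% and 2.41%, against 1.65% of all. The AP-1 site (TGACTCA) was found in 2.54%, 2.86% and 6.87%, against 4.70% of all. The E-box (CACGTG) was found in 10.4%, 11.0% and 4.49%, against 7.89% of all. The core of the NRF1 motif (GCATGCGC) was in 6.48%, 5.68% and 0.981%, against 3.55% of all, and the cAMP response element (TGACGTCA) in 4.20%, 3.33% and 0.858%, against 2.30% of all. Within windows of 50 to 60% GC the TATA box was in 6.66%, 8.40% and 10.4%, but the RUNX site was in 1.64%, 1.33% and 1.59%, without that order. Within 60 to 70% GC the AP-1 site was in 2.68% under members and 2.46% under other shared regions. A match is a run of letters and not a bound site.

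**Figure D4:**
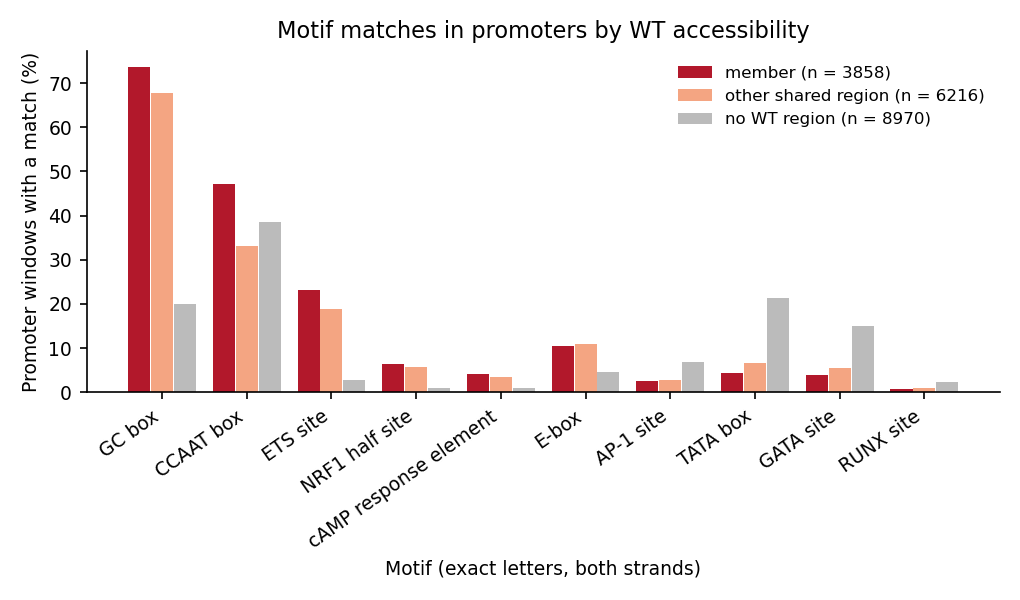
Share of promoter windows with an exact match (y axis, %) for 10 motifs (x axis) in windows under members (n = 3858), under other shared WT regions (n = 6216) and with no WT region (n = 8970). The CCAAT box was in 47.1% of the windows under members and 33.1% of those under other shared regions, while TATA, GATA and RUNX letters were most frequent where WT had no region, with windows of all GC contents together.

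The mutant lists were not used to choose the members, so the strength of the members there is an independent readout. Of the members, 86.0% and 85.8% were among the 5000 strongest peaks of the Bcat_KO libraries, 87.0% and 86.0% of the HOXA9_KO libraries, and 88.9% and 87.9% of the PRMT1_KO libraries. The mean over the 6 was 86.9% ± 1.27 (SD, n = 6), and 99.1% to 99.7% of the members were within the 10000 strongest. The PRMT1_KO values were the highest, but the exact permutation test over the 15 divisions of 6 libraries into 3 pairs gave p = 0.0667, the smallest it can give, and an adjusted p of 0.0778. All 6 lists at once held 3011 members (71.2%) among their 5000 strongest, against 14.6% of all 22524 shared WT regions. Of the members with a peak in all 6 lists, 99 were among the 5000 strongest of none. The member near Zfp874b, without a peak in HOXA9_KO replicate 1, was also among the 5000 strongest of none.

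By the same rule, Bcat_KO had 4186 strongest regions, HOXA9_KO 4288 and PRMT1_KO 4252. WT members were found in 81.1%, 80.2% and 82.8% of these sets, and 80.2%, 81.3% and 83.3% of the WT members were found in them. The Jaccard index, the regions shared by 2 libraries over all regions of both, was 0.737 on average between libraries of the same genotype over the 5000 strongest peaks. It was 0.698 between different single mutants and 0.665 between WT and a mutant. The exact permutation test over all divisions of the 8 libraries into 4 pairs gave p = 0.00952, the smallest it can give, and an adjusted p of 0.0333. The next best division reached 0.727. Without any 1 library the adjusted p was 0.0547, with the mean between 0.732 and 0.742.

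**Figure D5:**
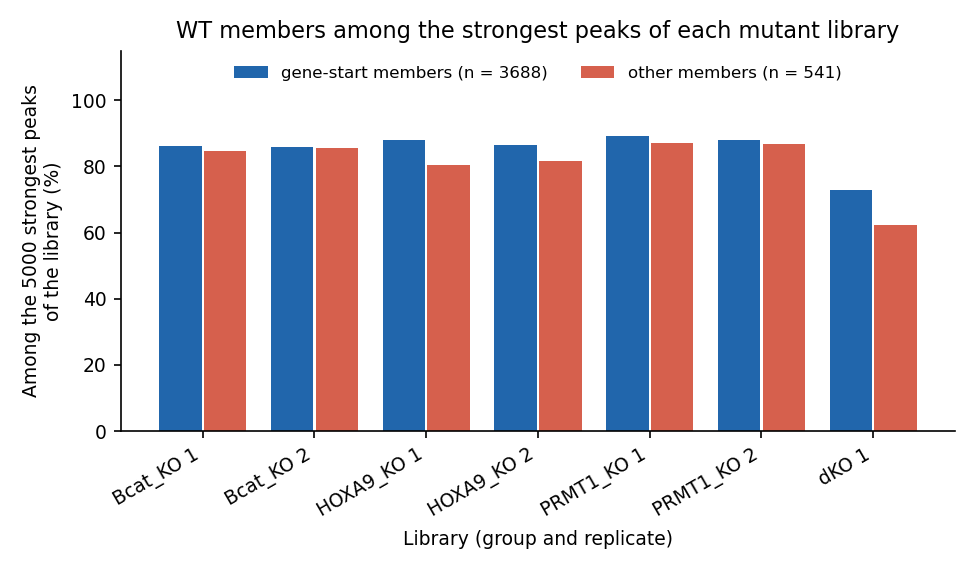
Share of the WT members among the 5000 strongest peaks (y axis, %) of each mutant library (x axis), for 3688 members at gene starts and 541 other members. The gene-start bars are the higher ones in all 7 libraries, from 85.8% to 89.2% in the single mutants and 73.0% in the dKO.

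Gene-start members were recovered more often than the other members as a whole. In the 6 single-mutant lists the gene-start share exceeded that of the other members by 0.264 to 7.55 percentage points, 2.89 ± 2.78 on average (SD, n = 6), with the widest gap in HOXA9_KO replicate 1. The exact sign-flip permutation test gave p = 0.0312, the smallest it can give. This test was added after the data had been seen and is not among the 7 adjusted tests. The 52 members over 50 kb from a gene went the other way, with 89.4% ± 2.65 (SD, n = 6) against 87.3% ± 1.30 for gene starts, while members inside genes stood at 84.4% ± 3.50 and those within 50 kb at 83.1% ± 2.1. These kinds were not tested apart. Gene-start members also ranked higher in WT, the value used to choose members, with a median mean rank of 2146.5 against 2625 for the other members. For the members over 50 kb from a gene it was 1222.75. The part of WT rank in the recovery was not tested. All 6 lists held 72.0% of the gene-start members and 65.8% of the distal ones.

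The makeup of the strongest peaks differed between WT and the single mutants by more than the spread between replicates, although no adjusted p fell below 0.05. At gene starts lay 85.3% and 84.4% of the 5000 strongest WT peaks, 78.6% and 77.1% of those of Bcat_KO, 81.4% and 79.2% of HOXA9_KO, and 79.5% and 77.4% of PRMT1_KO. Both WT libraries stood above all 6 mutant libraries, with 84.9% ± 0.693 (SD, n = 2) against 78.9% ± 1.57 (SD, n = 6). The difference of 5.98 points had an exact permutation p of 0.0357, the smallest of 28 choices, and an adjusted p of 0.05. Gene bodies held 8.75% ± 0.580 of the WT peaks and 12.5% ± 1.15 of the mutant peaks, and intergenic DNA 6.40% ± 0.113 and 8.62% ± 0.474, with the same p in both tests. The WT lists were also the shortest of the 8, with 34583 and 27536 autosomal peaks against 38961 to 44412. Peak number and genotype cannot be told apart here. Peak number is not sequencing depth, and the part of depth was not tested. The median background at the members' summits was 4.51 and 3.23 in WT and 3.44 to 4.75 in the single mutants. Replicate 1 lay above replicate 2 in each of the 4 groups. The median width of the strongest peaks was 911 and 772 bp in WT and 714 to 841.5 bp in the single mutants, a difference of 65.8 bp within the spread between replicates (exact permutation p = 0.214).

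A single member fell below rank 10000 in all 6 single-mutant lists. It lies at the start of Gm14295, a gene of a zinc finger cluster, at chr2:176798485-176799457. WT ranked it 3881 and 3212 with 36 and 31 reads. The mutants held 16 and 22 reads in Bcat_KO, 17 and 15 in HOXA9_KO and 20 and 17 in PRMT1_KO, and the dKO had no peak. WT did not overlap the mutants. For the ranks this follows from the choice, since the member was picked for its low ranks in the mutants. Gm14295 belongs to a family of similar genes, and the part of read mapping in these counts was not tested. Gm14393, Zfp970 and Gm14305 on the same chromosome were also among the 10 members with the highest ratio of WT to mutant reads, with mean reads of 60 against 35.5, 52 against 32 and 66 against 42.2. These 3 were named after their values were seen.

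Other members with poor median ranks in the single mutants lay at the starts of Nqo1 (4454 and 4567 in WT, 8144 to 11634 in the mutants), a quinone reductase of the oxidative stress response, and Med6 (3888 and 4339; 6506 to 11518), a Mediator subunit. A region 11.9 kb from a start near Zfp874b (4400 and 4864) had no peak in HOXA9_KO replicate 1 and ranks from 7408 to 12979 elsewhere. Tmem267 (1664 and 2931; 7499 to 13756) held a body member with 135 and 87 reads in WT and 47 to 84 in the mutants. Reads at the other end of the scale were lower in WT. A body member of Znrf1, a ubiquitin ligase, held 47 and 37 reads against 79 to 127, Polg2, an accessory subunit of the mitochondrial DNA polymerase, 50 and 51 against 90 to 131, and Lmna, which encodes lamin A, 65 and 35 against 97 to 110. These members were picked for their ranks or read ratios, so the separation from WT follows from the choice. Summit reads overlapped at Nqo1 (40 and 33 in WT, 25 to 34 in the mutants), Med6 (41 and 31; 23 to 36) and the region near Zfp874b (34 and 25; 20 to 35). The lowest ratio, at chr14:19415726-19416310, came with a peak that spanned a neighbouring member as well in 3 of the 6 single-mutant libraries.

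The member farthest from any gene lay at chr1:101901928-101902976, 622 kb from the nearest. It ranked 1784 and 1515 in WT with folds of 13.1 and 14.1, and its median rank in the single mutants was 1848.5. A member at chr15:19857064-19857984, 591 kb from a gene, ranked 1022 and 936 in WT with folds of 14.0 and 16.2, and between 1634 and 3431 in the single mutants. A 234 bp member at chr2:57629492-57629725 had uneven ranks, 3169 and 986 in WT and 5772 to 18198 in the single mutants. The genes with the most members within 50 kb were picked for that count. Gene density was not taken into account, so nothing particular to them is drawn. Sptbn4, a spectrin of nerve axons, had 7 members within 50 kb, 3 of them inside the gene, and Acer1, a ceramidase, and the zinc finger genes Zfp324 and Zbtb45 had 6 each. By chromosome, members made up from 13.0% of the shared regions of chromosome 19 to 23.2% of those of chromosome 13. Over all autosomes they were 4229 of 22524.

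The dKO library is shallow, with 10307 autosomal peaks. Of the members 3029 (71.6%, 95% Wilson interval 70.2 to 73.0) were among its 5000 strongest peaks and 3715 (87.8%, 86.8 to 88.8) had a peak. The intervals cover counting error only, and without a second library there is no test. The dKO held a peak at 89.6% of the gene-start members and 75.8% of the distal ones.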

How the data were processed

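Open chromatin was measured by ATAC-seq in 9 libraries of LSK cells. The authors used Bowtie2 2.4.2, SAMtools 1.14, Picard 2.27.4 and MACS2 on the build GRCm38/mm10, per the submitters' processing notes. Each library has its own peak list, per the peak names in the files. The deposited lists give per peak a score (10 times the −log10 q, cut to a whole number), the fold enrichment of the summit as computed by the authors (a ratio to local background), the deposited −log10 p and −log10 q, and the summit offset in bases, another deposited value. None of these is scaled between libraries, so they served to describe and rank peaks within 1 list. All values were computed on the 19 autosomes.

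Reads at a summit and the background there were solved from fold and p, and came out whole within 0.01 for at least 99.9% of the members' peaks in every library. Read totals are not given by the lists, so precision rests on these summit reads and on the 2 libraries of a group. Summit reads are not scaled for depth.

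Gene positions and promoters came from RefSeq's GRCm38.p6 tables, the build of the lists. Regions within 1 kb of a start counted as gene starts, others as inside a gene, within 50 kb or beyond. Group values were compared by exact permutation tests over samples, two-sided for differences, with Benjamini-Hochberg adjustment over 7 tests. Python 3.11.15, NumPy 2.4.6, pandas 2.3.3, SciPy 1.17.1 and matplotlib 3.10.9 were used, and the tests and the read recovery were tested on simulated data.

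Members, gene lists, motifs and printed promoters were chosen with earlier results of these data known. Named genes are the 20 members with the best mean WT rank, and the same at gene starts, the 10 widest, up to 4 genes per list (all for lists of at most 10), the 10 with the worst median mutant rank, the 10 farthest from a gene, the genes with the most members around them and those at the threshold. Genes named beyond this rule were picked after their values were seen. Some genes that the rule names are not reported here. The main tests did not pair samples by replicate number. Across 4227 regions, deviations of same-numbered libraries correlated by 0.0228 to 0.0603 over the 6 pairs of groups. Gene-start share and median width of the strongest peaks, however, were higher in replicate 1 than in replicate 2 in every group with a pair. Results with replicate number as a block are given below. Alternatives varied the number of strongest peaks, the ranking, chromosomes, overlap rule, gene-start definition, peak width, block and libraries. Chromosome 18 genes had no listed promoter, so both ends counted there.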

Additional observations from a re-analysis of the deposited data

How the results depend on the processing

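Taking the 2500 strongest peaks of each list gave 2073 members, of which 89.6% lay at gene starts, and taking the 10000 strongest gave 8518, with 76.9% at gene starts and 68.7% among the strongest dKO peaks. Ranked by fold, 84.9% lay at gene starts and 68.3% were among the strongest of the dKO. The gene-start share was 89.9% within 5 kb, 82.6% with either gene end counted, and 74.1% with starts of known strand only, an alternative added after the data had been seen. With the strongest peaks of 1 WT list alone there were 4994 to 5000 members, 84.6% to 85.3% at gene starts and 65.2% to 65.8% among the strongest of the dKO. All chromosomes, summit overlap and leaving out peaks narrower than 250 bp moved none of these 3 values beyond counting error or 1.5 times. Counts of list genes moved by over 1.5 times in 37 of 221 cases, mostly with the number of strongest peaks.

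Leaving out 1 library at a time, the gene-start difference between WT and mutants ran from 5.49 to 6.49 points, that of gene bodies from −4.18 to −3.36 and the intergenic one from −2.35 to −2.09, with adjusted p of 0.0667 to 0.167. The 3 differences kept their sign in each of 19 alternatives, and no adjusted p fell below 0.05. The width difference turned to −3.75 bp without WT replicate 1 and reached 135 bp without replicate 2. The strongest-against-other difference ran from 49.6 to 50.6 points and the Jaccard index from 0.732 to 0.742, both at an adjusted p of 0.0547, since fewer samples allow fewer arrangements. The share of members among the strongest mutant peaks ran from 79.8% to 87.2%.

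With the replicate block, which permutes within replicate number, the strongest-against-other difference of 50.2 points had p = 0.5 (exact, 4 arrangements) and the Jaccard index of 0.737 an adjusted p of 0.109. The gene-start difference of 5.98 points had an exact permutation p of 0.0625 under the block, the smallest of 16 arrangements. The shallow dKO list and the 25 to 34 reads of the weakest WT members limit what can be detected.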

Other observations

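Some regions were as strong in every single mutant as the members were in WT, without being members. In all, 275 regions were among the 5000 strongest of all 6 single-mutant lists and outside the members, and 128 of them (46.5%) were distal, against 12.8% of the members, 57.6% of the shared WT regions outside the members, and 24.9% and 29.7% of the regions among the 5000 strongest of WT replicate 1 or 2 only. Of the 275, 181 were among the 5000 strongest of 1 WT list, and 3 ranked below 10000 in both. Since they were chosen on mutant strength, their ranks carry no test.

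Some lay inside or near known genes. A region inside Cdh17, a cadherin, ranked 3832 and 6670 in WT and 763 to 1147 in the single mutants. A region inside Vav3, a guanine exchange factor of blood cells, ranked 3577 and 7668 in WT and 1021 to 2202 in the single mutants. One inside Ago2, the effector of miRNAs, ranked 5704 and 3113 in WT and 624 to 1976 in the mutants. A region near Fos, the immediate early gene, ranked 5443 and 3037 in WT and 738 to 3732 in the mutants, so that the WT range overlapped that of the mutants. At the start of the histone gene H4c17 the WT ranks were 5026 and 6124 and those of the mutants 684 to 3940, and the part of read mapping was not tested. These regions were named after their values were seen.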
